A study of Mus musculus with 24 samples.

Results

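Chromatin accessibility of CA3 excitatory neurons was compared between 2 inbred mouse strains, B6 (C57BL/6J) and DBA (DBA/2J), in single-nucleus ATAC-seq (snATAC-seq) of the ventral hippocampus. The regions compared were the peaks on chromosomes with at least 10 counts summed over the 4 libraries of the Exc-CA3 cell type, which were 298086 of the 300819 peaks of the series. All animals were untreated adult males of 10 to 16 weeks, and each library pooled tissue from about 2 animals, with 2 libraries per strain, so the spread between libraries is that between pools. The nuclei for snATAC-seq were not enriched with the neuronal antibody NeuN, whereas those for single-nucleus RNA-seq (snRNA-seq) were. Columns of the count tables carry the numbers 2 and 3 but the labels carry 1 and 2, so each column was assigned to its strain and to no single sample. The question was which regions of open chromatin differ between the strains within 1 neuronal type.

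CA3 pyramidal neurons receive the mossy fibre input of dentate granule cells, excite each other through recurrent axons and drive CA1 through the Schaffer collaterals. In ATAC-seq a transposase cuts DNA that nucleosomes leave free, so counts pile up at active promoters and at distal regulatory elements such as enhancers. Promoters rich in CpG dinucleotides (CpG islands) are open in most cell types, while distal elements differ most between cell types.

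The Exc-CA3 libraries held 1256 and 586 nuclei in B6 and 1105 and 1061 in DBA, with totals of 17747108 and 14193352 counts in B6 and 16562011 and 21265101 in DBA. Per nucleus this came to 14130 and 24221 counts in B6 and 14988 and 20043 in DBA, ranges that overlap. A peak's count cannot tell fewer open nuclei from fewer cuts per nucleus. Over the 50213 peaks that averaged 5 CPM or more (CPM being counts relative to the TMM-normalized library size), log2 CPM correlated at 0.975 between the B6 libraries and at 0.977 between the DBA libraries, against 0.926 to 0.930 between strains. The label Exc-CA3 was checked against marker genes at the strongest promoter peak of each gene, per kb of peak. The 7 CA3 genes lay at 9.87 to 23.3 CPM per kb and the 4 genes of excitatory neurons at 13.9 to 32.9, while the medians were 1.36 for oligodendrocyte, 2.05 for vascular, 2.38 for interneuron, 3.13 for dentate gyrus, 3.34 for astrocyte, 4.48 for CA1, 4.88 for microglial and 8.05 for CA2 genes. The highest promoter among the astrocyte genes (9.92), the CA2 genes (13.2) and the CA1 genes (16.2) lay within the range of the CA3 genes, and no marker list was at 0. Summed over their promoters, the CA3 genes held 188 to 192 CPM in B6 and 204 to 205 in DBA, and the oligodendrocyte genes 15.0 to 18.0 in B6 and 13.5 to 14.8 in DBA. The part of these differences in the results was not tested. In the transcripts of the same cell type, Grik4, a kainate receptor subunit used as a CA3 marker, stood at 805 to 933 CPM and the oligodendrocyte gene Mog at 1.03 to 2.55 CPM. Of the microglial genes, C1qa stood at 2.07 to 3.26 CPM, Csf1r at 1.61 to 3.77, Cx3cr1 at 23.5 to 33.8 and P2ry12 at 168 to 230. P2ry12 lies within Med12l on the opposite strand, and the part of Med12l in its count was not tested.

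At an adjusted p under 0.05, 14952 peaks differed between the strains, 7749 higher and 7203 lower in DBA, which was 5.02% of those tested (edgeR's quasi-likelihood test with Benjamini-Hochberg adjustment). An unadjusted p under 0.05 was reached by 46098. The median absolute log2 fold change of the called peaks was 1.13, the quartiles were 0.69 and 1.77, and 8515 peaks differed by at least 1 on the log2 scale. Of these, 3564 were higher and 4951 lower in DBA. The size of a called change depended on level, and the median was 0.50 among called peaks with a mean of at least 5 CPM. The 10-count limit of the rule mattered little, since 952 peaks had exactly 10 counts, of which 16 were called, and 762 had 9. With library totals in place of TMM normalization, 41.6% of 14029 called peaks were higher in DBA, against 51.8% in the fit above, and the median log2 fold change of all peaks moved from 0.00 to -0.05. DESeq2 called 3608 peaks, and without DBA library 3 the count was 596, without DBA library 2 it was 1207, without B6 library 2 it was 8169 and without B6 library 3 it was 9238.

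**Figure D1:**
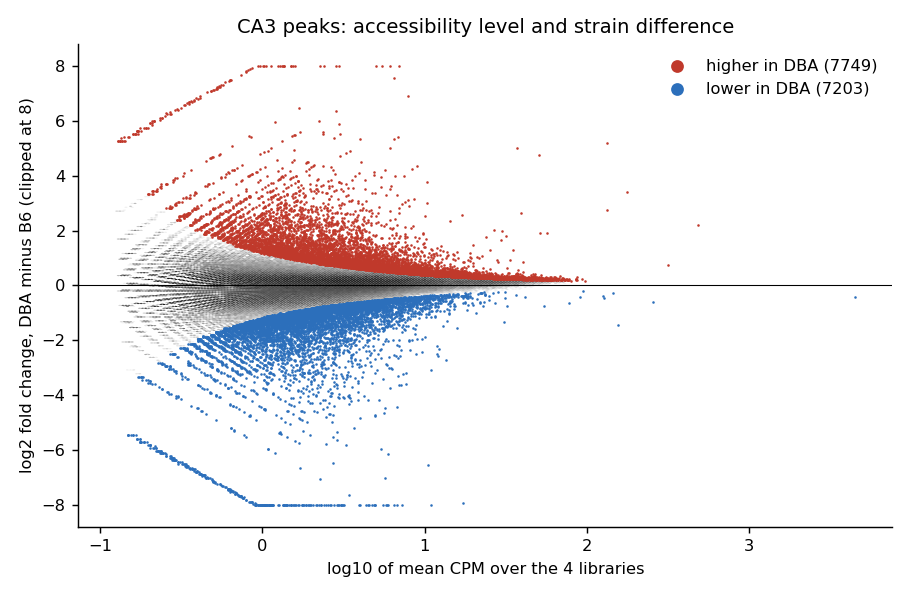
Each CA3 peak is placed by its mean level (log10 CPM over the 4 libraries, horizontal axis) and its log2 fold change, DBA minus B6 (vertical axis, clipped at 8). Peaks called higher in DBA are red (7749), those called lower are blue (7203) and all others are grey, and the smallest difference that was called shrinks as the level rises. The slanting lines at the upper and lower left are peaks with 0 counts in 1 strain.

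The size of the differences and their direction moved with the level of a peak. Peaks were put into 10 equal classes by mean CPM. In the lowest class 1.06% were called, and in the highest 9.12%. The median absolute log2 fold change of the called peaks was 3.89 in the lowest class and 0.40 in the highest. The median log2 fold change ran from -0.09 in class 2 to 0.10 in the highest. Of the called peaks, 34.0% were higher in DBA in class 2 and 82.9% in the highest. With offsets that follow the level in each library (a loess curve, an alternative chosen after seeing the data), 13335 peaks were called, of which 6352 were higher in DBA and 6983 lower.

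Promoters are where transcription starts, and here they were peaks within 1 kb of the start of a protein-coding transcript. Of 20403 promoter peaks tested, 1375 (6.74%) were called, 1073 higher (5.26%) and 302 lower (1.48%) in DBA, but with level-dependent offsets the direction turned, to 325 higher and 434 lower. With library totals 516 promoter peaks were higher and 367 lower, and with DESeq2 117 and 96. Without DBA library 3 the edgeR fit called 41 promoter peaks, without DBA library 2 it called 74, without B6 library 2 it called 558 and without B6 library 3 it called 569. The promoter differences were small, with a median absolute log2 fold change of 0.34 among the called ones, against 1.19 for called peaks elsewhere. Among peaks with a mean of at least 5 CPM these medians were closer, at 0.30 and 0.55. Promoter peaks also held the higher levels, at a median of 11.2 CPM against 1.34 CPM. They took up 29.3% and 29.0% of all counts in B6 and 30.5% and 30.2% in DBA, so that the strains did not overlap. The part of this shift in the promoter calls was not tested. Among the other peaks, calls fell about evenly in both directions, with 859 exon peaks higher and 917 lower (5.2% of 34165 called), 2785 intron peaks higher and 2872 lower (4.14% of 136512), and 3032 intergenic peaks higher and 3112 lower (5.74% of 107006).

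CpG density was counted in fixed 2-kb windows of the genome, taking for each peak the window that holds its middle. Over 40 CpG per kb, 7.95% of 8138 peaks were called, 564 higher and 83 lower in DBA, but with the level-dependent offsets 95 were higher and 173 lower. At or under 40 CpG per kb 4.93% of 289948 peaks were called, 7185 higher and 7120 lower. The order of these shares turned with the normalization and the tool. The level-dependent offsets called 3.29% over 40 CpG per kb and 4.51% at or under it, library totals 4.21% and 4.72%, and DESeq2 0.971% and 1.22%. Dense peaks were again the strong ones, at a median of 20.5 CPM against 1.39 CPM. Among peaks with a mean of at least 5 CPM the percent called was 8.77 over 40 CpG per kb and 8.19 at or under it, so that the gap between the classes narrowed once weak peaks were left out.

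**Figure D2:**
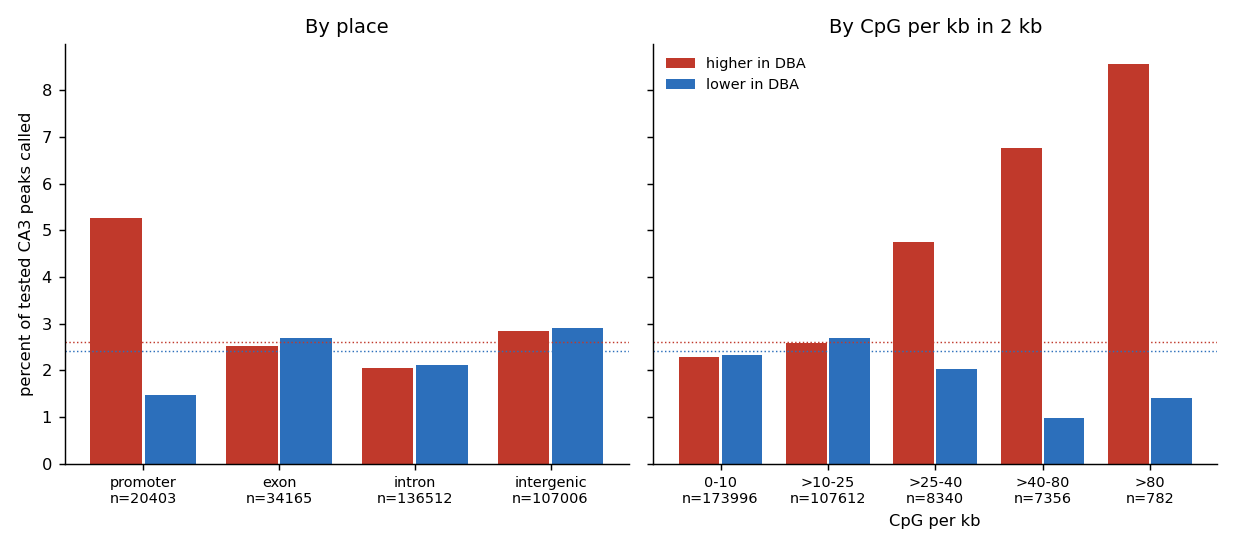
Bars give the percent of tested CA3 peaks that were called higher (red) or lower (blue) in DBA, by place (left) and by CpG per kb in 2-kb windows (right), with the number of peaks under each pair. Dotted lines mark 2.6% higher and 2.42% lower over all peaks. Promoters and CpG-dense peaks lean to DBA in the fit shown, a direction that turned with level-dependent offsets.

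Some peaks sat in sequence that the genome holds more than once. For 5 evenly spaced 32-base words of each peak, the number of copies was counted in the reference genome (GRCm38). All 5 words occurred once in 88.6% of the tested peaks and in 83.2% of the called peaks. Of peaks with 5 single-copy words 4.71% were called, against 7.37% of the 34023 other peaks and 14.1% of the 1961 peaks with 1 single-copy word. Among the 44 called peaks with a mean of at least 5 CPM, at least 3 counts in each strain, no overlap of the strains and an absolute log2 fold change of at least 3, 18 had only single-copy words. Restricting the comparison to single-copy peaks left 12445 called, 6581 higher and 5864 lower in DBA.

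The largest differences at a mean of at least 5 CPM are shown by 200 bases of reference sequence around the middle of the peak (GRCm38, plus strand), since in these regions one strain held few counts. They are the first 4 in each direction whose 200 bases overlap no annotated UTR. Capitals mark CpG dinucleotides. The first 4 were higher in DBA.
chr1:171552314-171552513: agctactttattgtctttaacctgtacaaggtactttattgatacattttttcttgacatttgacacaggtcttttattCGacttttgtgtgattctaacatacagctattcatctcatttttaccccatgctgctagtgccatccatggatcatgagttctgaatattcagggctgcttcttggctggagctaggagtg
chr11:3134012-3134211: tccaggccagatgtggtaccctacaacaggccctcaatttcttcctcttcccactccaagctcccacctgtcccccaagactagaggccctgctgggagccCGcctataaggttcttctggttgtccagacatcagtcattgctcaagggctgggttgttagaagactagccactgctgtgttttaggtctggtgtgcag
chr11:3145012-3145211: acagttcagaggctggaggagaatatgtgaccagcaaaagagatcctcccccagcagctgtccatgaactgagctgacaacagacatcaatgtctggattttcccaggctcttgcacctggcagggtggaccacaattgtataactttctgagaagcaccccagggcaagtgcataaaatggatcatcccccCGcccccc
chr11:3164110-3164309: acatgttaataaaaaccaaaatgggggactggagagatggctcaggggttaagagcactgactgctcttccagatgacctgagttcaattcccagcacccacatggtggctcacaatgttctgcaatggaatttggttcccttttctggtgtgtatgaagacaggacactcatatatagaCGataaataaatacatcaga
The next 4 were lower in DBA.
chr6:3201102-3201301: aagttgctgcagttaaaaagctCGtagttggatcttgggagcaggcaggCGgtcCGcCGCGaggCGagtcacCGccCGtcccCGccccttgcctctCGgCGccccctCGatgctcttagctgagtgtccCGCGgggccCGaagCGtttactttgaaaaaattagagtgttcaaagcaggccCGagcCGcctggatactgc
chr14:64225741-64225940: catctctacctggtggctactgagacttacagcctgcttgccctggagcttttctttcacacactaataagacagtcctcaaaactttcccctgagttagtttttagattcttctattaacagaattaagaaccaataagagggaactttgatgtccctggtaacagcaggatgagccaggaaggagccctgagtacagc
chr17:33981077-33981276: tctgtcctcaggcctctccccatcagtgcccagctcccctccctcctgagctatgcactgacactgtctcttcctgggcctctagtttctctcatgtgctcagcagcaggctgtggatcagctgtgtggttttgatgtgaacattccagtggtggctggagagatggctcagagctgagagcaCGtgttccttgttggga
chr16:41309408-41309607: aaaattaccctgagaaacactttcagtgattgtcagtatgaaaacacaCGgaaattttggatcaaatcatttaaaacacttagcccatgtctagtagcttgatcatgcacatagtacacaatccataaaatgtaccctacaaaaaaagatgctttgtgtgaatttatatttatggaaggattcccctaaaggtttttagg
The windows higher in DBA each held 1 CpG, and those lower in DBA held 18, 0, 1 and 1. The window on chromosome 6 stood apart with its 18 CpGs. Of these 8 windows, the second and the fourth of the first set held the E-box CAGATG, and the third of each set held the E-box CAGCTG.

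The peak with the largest rise lay between genes at chr1:171552185-171552644, 6549 bases from the nearest start, that of Cd244a, a SLAM family receptor of natural killer cells. B6 held 2 and 2 counts there (0.111 and 0.139 CPM) and DBA 271 and 305 (16.7 and 14.5 CPM). The strains were far apart, with a log2 fold change of 6.90 ± 0.29 (edgeR adjusted p = 1.09e-50), and all 5 of its words were single-copy. Values after ± are approximate standard errors, the absolute log2 fold change divided by the square root of the test's F statistic. Where 1 strain held few counts they can understate the uncertainty. Of the 10 largest rises, 7 lay in Sfi1, which encodes a centrosomal protein that binds centrin, between 3132881 and 3167952 on chromosome 11. The strongest of them, at chr11:3143955-3146269, overlaps exons and UTR of Sfi1 and stood at 7.38 and 6.79 CPM in B6 and 272 and 243 CPM in DBA. That was a log2 fold change of 5.17 ± 0.08 (edgeR adjusted p = 5.77e-114). In the 7 Sfi1 peaks, between 0 and 3 of the 5 words were single-copy. Another rise was in an unprocessed pseudogene, Gm7916 on the X chromosome, at chrX:54178956-54180662. Its levels were 0.166 and 0.624 CPM in B6 and 11.2 and 12.7 CPM in DBA, and 3 of its 5 words were single-copy.

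Among the 10 largest falls, the first was an intergenic peak at chr6:3200811-3201594. It held 35.1 and 34.1 CPM in B6, and 0 and 5 counts (0 and 0.238 CPM) in DBA, a log2 fold change of -7.94 ± 0.22 (edgeR adjusted p = 5.25e-75). With 1 library left out, its log2 fold change ran from -12.1 to -7.14. Only 1 of its 5 words was single-copy. The second lay in an intron of Msra, a methionine sulfoxide reductase, at chr14:64225394-64226288, with 214 and 156 counts in B6 and 0 and 3 in DBA. The fourth lay in an intron of Lsamp, which encodes the limbic system-associated membrane protein, at chr16:41308607-41310410. Lsamp's peak held 12.3 and 11.2 CPM in B6 and 0.246 and 0.0954 CPM in DBA, a log2 fold change of -6.13 ± 0.29 (edgeR adjusted p = 4.19e-44). Both intron peaks had only single-copy words, as did the peak at chr1:125823304-125824036 in an intron of Gpr39, a zinc-sensing receptor. Gpr39's peak fell from 10.5 and 11.3 CPM in B6 to 0.370 and 0.572 CPM in DBA. The third, at chr17:33980589-33981766, lay 15719 bases from the start of H2-K1, overlapped a processed pseudogene and a lincRNA, and had no single-copy word. It stood at 19.3 and 22.2 CPM in B6 and 0.308 and 0.143 CPM in DBA. The remaining falls, on chromosomes Y, 19, 17 and 7, had log2 fold changes of -5.96 to -3.73. Each of the 10 rises and 10 falls stayed called when any 1 library was left out.

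Peaks with 0 counts in 1 strain numbered 116 for B6 and 292 for DBA, and all were called, since such a peak entered the test only through the strain where it was high. Of these 408 peaks, 166 had only single-copy words. The peak with the most B6 counts, at chr6:47747931-47748564, held 390 and 325 counts in B6 and none in DBA, so that it was at least 273-fold higher in B6 against a floor of 3 counts over the libraries of a strain. None of its words was single-copy. The second, at chr8:127038196-127039717, held 287 and 189 counts in B6 and none in DBA, at least 182-fold higher, with 5 single-copy words. It lay between genes, 24176 bases from a start of Pard3, a cell polarity gene. In the other direction, 2 neighbouring intergenic peaks on chromosome 19, at chr19:56510394-56511855 and chr19:56494017-56495430, held none in B6. The first of them held 210 and 309 counts in DBA, at least 151-fold higher, and the other 175 and 286 counts, at least 134-fold higher. No word of either was single-copy. The third in each direction lay over pseudogenes, with at least 121-fold more in DBA on chromosome 4 and at least 167-fold more in B6 on chromosome 12.

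Promoter peaks with the largest folds are shown in the same way, since they lie within 1 kb of the start of a gene. The first 4 outside UTRs were higher in DBA.
Cd244a promoter, chr1:171558853-171559052: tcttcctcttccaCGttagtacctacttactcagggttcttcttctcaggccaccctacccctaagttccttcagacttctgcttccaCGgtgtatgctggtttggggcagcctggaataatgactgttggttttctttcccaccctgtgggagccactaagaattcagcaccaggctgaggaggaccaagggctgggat
Sfi1 promoter, chr11:3192952-3193151: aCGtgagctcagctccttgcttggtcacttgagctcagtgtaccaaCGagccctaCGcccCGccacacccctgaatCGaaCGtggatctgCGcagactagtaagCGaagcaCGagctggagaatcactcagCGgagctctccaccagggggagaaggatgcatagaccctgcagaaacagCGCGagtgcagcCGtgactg
Abcg8 promoter, chr17:84675384-84675583: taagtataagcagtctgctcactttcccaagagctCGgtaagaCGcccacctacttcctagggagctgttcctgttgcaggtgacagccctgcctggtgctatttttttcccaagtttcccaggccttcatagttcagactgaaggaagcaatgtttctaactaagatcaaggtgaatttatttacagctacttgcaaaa
Cacna1h promoter, chr17:25379300-25379499: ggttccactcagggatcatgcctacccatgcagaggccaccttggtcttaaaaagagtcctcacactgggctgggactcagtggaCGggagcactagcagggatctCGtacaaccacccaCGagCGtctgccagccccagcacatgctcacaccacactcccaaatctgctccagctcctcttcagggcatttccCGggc
The next 4 were lower in DBA.
Mndal promoter, chr1:173880306-173880505: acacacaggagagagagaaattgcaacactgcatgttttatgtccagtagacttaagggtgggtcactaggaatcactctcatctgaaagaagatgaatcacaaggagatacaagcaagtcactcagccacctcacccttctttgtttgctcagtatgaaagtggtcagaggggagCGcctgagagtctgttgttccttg
Gzmn promoter, chr14:56173354-56173553: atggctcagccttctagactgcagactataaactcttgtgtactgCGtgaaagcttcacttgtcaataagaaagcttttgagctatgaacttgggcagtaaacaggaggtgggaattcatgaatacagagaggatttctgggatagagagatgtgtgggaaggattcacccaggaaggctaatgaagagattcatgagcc
Gm10800 promoter, chr2:98666654-98666853: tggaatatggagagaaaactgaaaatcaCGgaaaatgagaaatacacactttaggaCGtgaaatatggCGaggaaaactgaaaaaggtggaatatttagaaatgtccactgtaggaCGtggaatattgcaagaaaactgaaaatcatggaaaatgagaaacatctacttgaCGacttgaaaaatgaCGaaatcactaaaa
Ifi203 and Mndal promoter, chr1:173942713-173942912: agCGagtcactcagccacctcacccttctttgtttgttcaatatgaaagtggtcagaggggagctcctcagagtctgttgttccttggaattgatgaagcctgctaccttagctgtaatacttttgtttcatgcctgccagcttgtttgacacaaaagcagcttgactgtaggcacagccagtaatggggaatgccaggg
They held 2, 13, 2 and 5 CpGs in the first set and 1, 1, 6 and 1 in the second, so that the Sfi1 window held the most. Motifs were searched on both strands of such 200-base windows. AP-1 (TGANTCA) was found in 10.1% of all peaks, and here in the Mndal window, and the E-box CAGATG was found in 23% and again in the Mndal window. None of the other 7 windows held a motif searched for.

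The Cd244a promoter peak had the largest rise, from 16 and 11 counts in B6 (0.888 and 0.762 CPM) to 168 and 202 counts in DBA (10.4 and 9.63 CPM). The log2 fold change was 3.57 ± 0.22 (edgeR adjusted p = 9.78e-32). The Sfi1 promoter peak, with 5 single-copy words, stood at 31.7 and 29.2 CPM in B6 and 339 and 308 CPM in DBA, a log2 fold change of 3.40 ± 0.06 (edgeR adjusted p = 2.13e-103). It was the strongest of the 10. Aspg, an asparaginase gene, stood at 2.88 and 1.94 CPM in B6 and 10.2 and 10.4 CPM in DBA. Abcg8, a sterol transporter, stood at 2.94 and 2.63 CPM in B6 and 10.5 and 10.6 CPM in DBA. For both the fold was 3.76 to 4.17. Cacna1h encodes a low-voltage-activated (T-type) calcium channel, and its peak lay 972 bases from a start, outside any UTR. It held 2.33 and 2.01 CPM in B6 and 7.95 and 7.82 CPM in DBA, a log2 fold change of 1.85 ± 0.19 (edgeR adjusted p = 2.42e-15).

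Hdhd3 and Alad, the second an enzyme of heme synthesis, are neighbours on chromosome 4. The Hdhd3 promoter peak rose from 15.4 and 12.5 CPM in B6 to 50.2 and 48.5 CPM in DBA, and that of Alad from 14.8 and 13.3 to 45.5 and 44.3 CPM. Their folds were close, at 3.49 and 3.18. Pyroxd2, an oxidoreductase gene, stood at 5.10 and 4.50 CPM in B6 and 15.5 and 15.5 CPM in DBA. The peak of 4930522L14Rik, a protein-coding gene, stood at 3.11 and 2.49 CPM in B6 and 9.61 and 9.01 CPM in DBA. Ren1, the renin gene, stood at 3.72 and 3.26 CPM in B6 and 8.13 and 9.82 CPM in DBA, and 2 of its 5 words were single-copy. Of the 10 promoter rises only Ren1's lost its call with a library left out, at an edgeR adjusted p of 0.087 without DBA library 3.

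Among promoter falls, 2 peaks belonged to interferon-inducible genes of the HIN-200 family, which sense DNA. Mndal's peak fell from 12.5 and 14.2 CPM in B6 to 0.924 and 1.19 CPM in DBA, by 3.62 ± 0.19 on the log2 scale (edgeR adjusted p = 8.66e-39). The peak at the start of Ifi203, within Mndal's bounds too, fell from 9.65 and 9.22 CPM to 3.20 and 3.86 CPM, and 1 of its 5 words was single-copy. Fggy, a carbohydrate kinase gene, stood at 19.4 and 20.1 CPM in B6 and 3.82 and 4.58 CPM in DBA, a log2 fold change of -2.21 ± 0.13 (edgeR adjusted p = 2.32e-35). Gzmn, a granzyme gene, stood at 19.9 and 20.8 CPM in B6 and 4.87 and 3.48 CPM in DBA. Both had only single-copy words. The lowest fold change was at Gm19684, in the H2-T region of chromosome 17, at 9.32 and 10.5 CPM in B6 and 0.370 and 0.668 CPM in DBA with 1 single-copy word. Gm10800 had the highest level, 223 and 232 CPM in B6 and 79.9 and 85.7 CPM in DBA, and also 1 single-copy word. The median over its words was 5 copies in the genome. Its transcript had 4 and 0 counts in B6 and 0 and 0 in DBA, too few to be tested, so the peak is not tied to an expressed gene. The other 4 promoter falls, with log2 fold changes of -2.14 to -1.22, lost their call without either of the DBA libraries. Their adjusted p without DBA library 3 was 0.057 for Zfp957, 0.081 for the peak shared by Tmem267 and 3110070M22Rik, 0.15 for Rassf3 and 0.11 for Mei1 (edgeR). Without DBA library 2 it was 0.055, 0.053, 0.16 and 0.071.

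**Figure D3:**
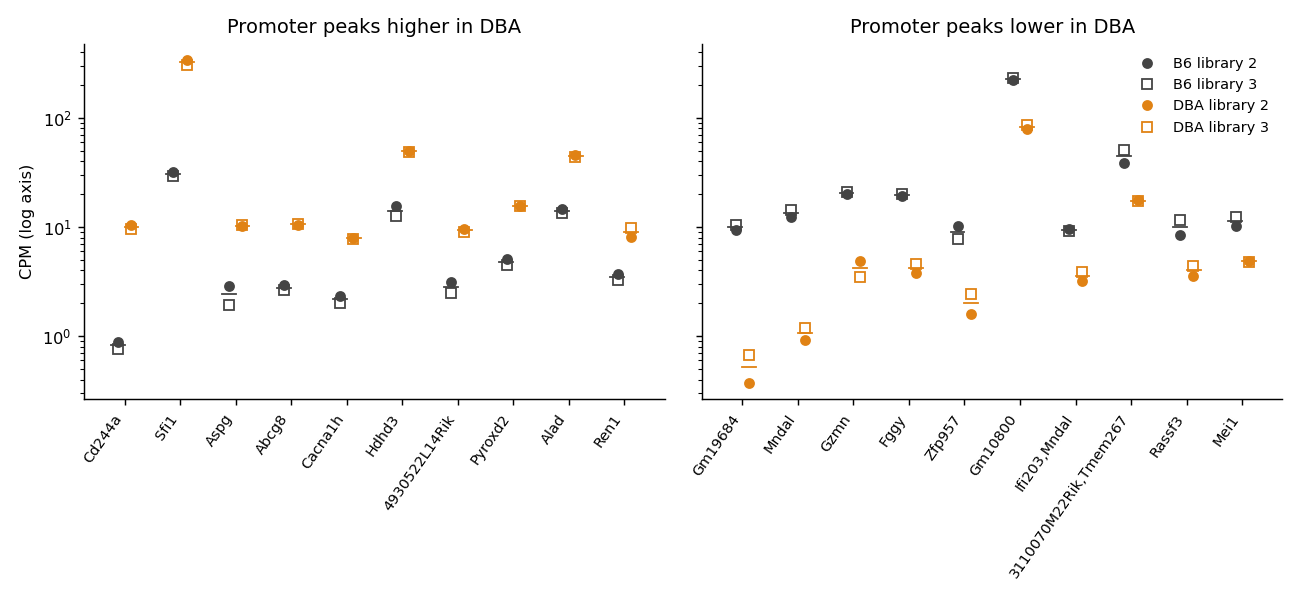
CPM (log axis) of the 10 promoter peaks with the largest rise (left) and the 10 with the largest fall (right) in DBA, in each B6 (dark) and DBA (orange) library, with bars at the strain means. In all 20 the B6 and DBA libraries do not overlap, which the choice of these peaks required. The same held for 44.0% of all tested peaks.

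Synaptic and channel genes carry most of their peaks in introns, and lists of such genes were counted over the peaks within 2 kb of the gene. Against 5.02% of all peaks, 2.96% of 1114 peaks of ionotropic glutamate receptor genes were called, 20 higher and 13 lower in DBA, in 10 of 18 genes. Their median log2 fold change was 0.02, against 0.00 over all peaks. Gria1, an AMPA receptor subunit, had an intron peak at chr11:57310793-57311341 with 5.10 and 6.17 CPM in B6 and 13.4 and 13.5 CPM in DBA, a log2 fold change of 1.27 ± 0.13 (edgeR adjusted p = 8.8e-15). Grin2b, an NMDA receptor subunit, had one at 0.943 and 1.04 CPM in B6 and 4.37 and 5.10 CPM in DBA (log2 fold change 2.27 ± 0.26). An intron peak of the kainate receptor gene Grik3 stood at 0.888 and 1.18 CPM in B6 and 4.19 and 4.10 CPM in DBA. These rises were single peaks of large genes: Grin2b had 116 tested peaks, of which 4 rose and 4 fell.

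Of metabotropic glutamate receptor peaks 2.24% were called, of GABA-A receptor subunit peaks 2.65%, of voltage-gated sodium channel peaks 3.25% and of calcium channel peaks 2.46%, each a share below that over all peaks. Gabrb1, a GABA-A receptor subunit, had an intron peak that fell from 10.1 and 10.2 CPM in B6 to 3.94 and 3.53 CPM in DBA (log2 fold change -1.45 ± 0.15, edgeR adjusted p = 3.2e-14). Of 107 peaks of Cacna1e, the R-type calcium channel gene, 9 rose and 2 fell. Potassium and HCN channel genes had 4.24% of 1439 peaks called, 27 higher and 34 lower in DBA. Kcnb2, a delayed rectifier, had an intron peak that rose from 0.943 and 1.04 CPM to 6.16 and 6.72 CPM (log2 fold change 2.70 ± 0.24, edgeR adjusted p = 2.3e-19). Kcnh1, an ether-a-go-go channel, and Kcnip3, a channel-interacting protein, went the other way, with 6 of 77 and 5 of 14 peaks lower in DBA and none higher.

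Genes of axon guidance had 3.05% of 2032 peaks called, 38 higher and 24 lower. A peak within Ephb1, an ephrin receptor gene that 9630041A04Rik overlaps here, rose from 6.93 and 6.86 CPM in B6 to 16.9 and 20.1 CPM in DBA (log2 fold change 1.43 ± 0.12, edgeR adjusted p = 8.7e-22). Cadherins had 3.75% of 827 peaks called, 18 higher and 13 lower. An intron peak of Cdh18 stood at 2.55 and 3.74 CPM in B6 and 13.8 and 13.9 CPM in DBA (log2 fold change 2.16 ± 0.15, edgeR adjusted p = 7.1e-27). Presynaptic release genes had 2.44% of 779 peaks called, 14 higher and 5 lower. Transcription factors of excitatory neurons had 2.12% of 850, 7 higher and 11 lower, among them an intron peak of Nfib that fell from 9.10 and 10.0 CPM to 3.14 and 3.29 CPM. Immediate early genes, which neuronal activity induces, had 4 of 84 called, with the Arc promoter peak at 10.7 and 10.3 CPM in B6 and 13.7 and 14.6 CPM in DBA (log2 fold change 0.44 ± 0.11, edgeR adjusted p = 0.0051). A Bdnf promoter peak differed in the other direction, at 24.9 and 26.1 CPM in B6 and 21.7 and 20.9 CPM in DBA (log2 fold change -0.26 ± 0.08, edgeR adjusted p = 0.049). By DESeq2 neither Arc (adjusted p = 0.44) nor Bdnf (adjusted p = 0.78) was called.

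CA3 marker genes themselves had 8 of 222 peaks called (3.6%), 5 higher and 3 lower, in 3 of 7 genes. An intron peak of Spock1, a proteoglycan gene, stood at 4.22 and 3.60 CPM in B6 and 1.91 and 1.76 CPM in DBA (log2 fold change -1.10 ± 0.23, edgeR adjusted p = 0.00023), and DESeq2 did not call it (adjusted p = 0.13). Of the 91 peaks of Grik4, 3 were higher and 2 lower in DBA. No other marker list had more than 3 called peaks.

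Major histocompatibility complex (MHC) class I genes stood above the background, with 6 of 31 peaks called (19.4%), 5 higher and 1 lower in DBA. H2-D1, which encodes a classical class I chain, had a promoter peak at 13.0 and 12 CPM in B6 and 24.3 and 26.6 CPM in DBA (log2 fold change 1.03 ± 0.09, edgeR adjusted p = 3.5e-18). H2-K1 stood at 7.05 and 6.03 CPM in B6 and 10.0 and 11.5 CPM in DBA, a change that DESeq2 did not call (adjusted p = 0.055). H2-T22 stood at 13.0 and 14.2 against 20.4 and 20.3 CPM. H2-Q7, a nonclassical gene, was lower in DBA, at 5.60 and 5.54 CPM in B6 and 1.05 and 1.67 CPM in DBA (log2 fold change -1.99 ± 0.23, edgeR adjusted p = 6.1e-13). These genes are near copies of each other, so the reads could be split between them, and their values are uncertain.

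Genes known for sequence or copy number differences between the strains had 36 of 220 peaks called (16.4%), 33 higher and 3 lower, in 11 of 17 genes. Known differences were the reason for choosing this list, so its count is no independent evidence. Dnah8, an axonemal dynein gene, had 17 of 36 peaks higher and none lower, with a median log2 fold change of 0.89. It lies beside Glo1, the glyoxalase gene, whose promoter peak stood at 14.7 and 14.6 CPM in B6 and 30.4 and 31.0 CPM in DBA (log2 fold change 1.07 ± 0.09, edgeR adjusted p = 1.6e-21). The promoter peak of Glp1r, the receptor for glucagon-like peptide, stood at 4.77 and 3.95 CPM in B6 and 8.81 and 11.6 CPM in DBA. In Alad and Hdhd3 all 4 peaks were higher. Nnt, a mitochondrial transhydrogenase gene, went the other way, with 2 of 16 peaks lower in DBA and none higher.

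Called peaks were unevenly spread over the genome. By chromosome the percent called ran from 1.67 on the X to 7.02 on chromosome 14, apart from the Y, where 26 of 43 peaks were called. All 26 lay in a single window of 500 kb, given below. In 518 windows of 5 Mb with at least 100 tested peaks, the percent called ran from 0 to 25.7 with a median of 4.42 and quartiles of 2.50 and 6.27. The highest was chromosome 14 from 50 to 55 Mb, with 107 of 417 peaks called, 58 higher and 49 lower in DBA. It was followed by chromosome 13 from 65 to 70 Mb, with 79 of 376. In these windows both directions were about equally common.

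**Figure D4:**
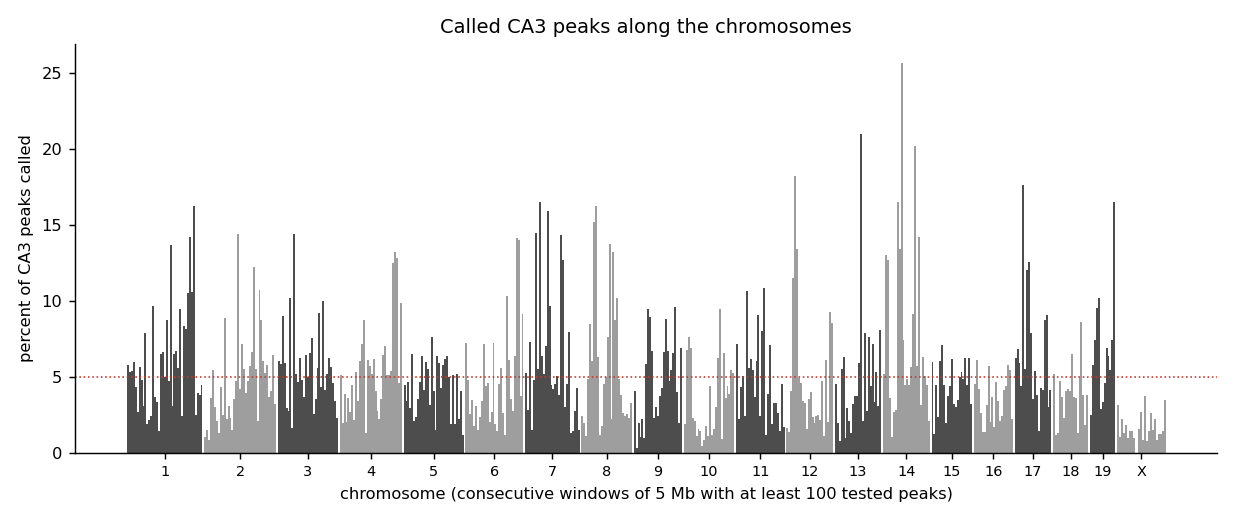
Percent of CA3 peaks called in consecutive 5-Mb windows with at least 100 tested peaks, along the autosomes and the X. The dotted line marks 5.02%, and single windows reach 25.7% on chromosome 14 and 21.0% on chromosome 13.

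At a finer scale, 23 of 4740 windows of 500 kb with at least 10 tested peaks had a median log2 fold change of at least 0.5 in size. A window on chromosome 1 (171500001 to 172000000) spans the SLAM receptor genes Cd244a, Ly9, Slamf7, Cd48, Slamf1, Cd84 and Slamf6, and 32 of its 67 peaks were higher and 1 lower in DBA. Its counts summed to 1767 and 1391 in B6 and 3265 and 4043 in DBA, with a median log2 fold change of 1.08. Another on chromosome 1 (85000001 to 85500000) had the highest median, 5.74, but few counts, 20 and 18 in B6 and 141 and 261 in DBA. On chromosome 4 (61500001 to 62000000), a window over Mup genes, which encode major urinary proteins, had 7 of 14 peaks higher. On chromosome 8 (19500001 to 20000000) 7 of 13 were higher. On the Y (90500001 to 91000000) all 26 peaks were called, 15 higher and 11 lower, and no peak elsewhere on the Y was called. The Y peak among the 10 largest falls lay in this window. It had 1 single-copy word of 5, and the median over its words was 7 copies.

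Among windows with low medians, one on chromosome 7 (60500001 to 61000000) without a protein-coding gene had 5 of 13 peaks lower, and its counts summed to 629 and 483 in B6 and 201 and 215 in DBA. Windows over olfactory receptor genes on chromosome 9 (38000001 to 38500000) and over olfactory receptor and Ifi genes on chromosome 1 (174000001 to 174500000) had 5 of 11 and 7 of 20 peaks lower and none higher. A window over zinc finger genes on chromosome 4 (147000001 to 147500000) had a median of -0.71, with 3 peaks higher and 2 lower.

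Sequence motifs were counted in the 200 bases around the middle of each peak. Away from promoters, AP-1 (TGANTCA, bound by Fos and Jun) was in 10.5% of all peaks, 11.3% of those higher and 11% of those lower in DBA. The E-box CAGATG, a motif of proneural factors such as Neurod, was in 23.9% of all, 25.1% of the higher and 27.3% of the lower. The NFI half-site TTGGCA was in 15.4%, 17.3% and 15.7%, and the E-box CAGCTG in 14.4%, 12.2% and 13.7%. The MEF2 motif was in 3.49%, 2.95% and 3.55%. CTCF marks boundaries of chromatin loops, and its motif was in 0.843% of all peaks away from promoters, 0.449% of the higher and 0.580% of the lower. Of the 2493 peaks with a CTCF motif 3.05% were called, against 5.02% overall. The cAMP response element TGACGTCA, the EGR motif GCGTGGGCG and the RFX motif GTTGCCATG were each in under 1% of all peaks, at 0.232%, 0.0731% and 0.528%.

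Promoter peaks were then set beside the transcripts of the same cell type, measured in other nuclei. The snRNA-seq libraries held 733 and 503 nuclei in B6 and 565 and 390 in DBA. Of 16337 transcripts tested, 5241 (32.1%) were called, 3129 higher and 2112 lower in DBA. Of these, 1535 had 0 counts in 1 strain, 1440 of them in B6, and some are renamed genes: March1 had 19125 counts in B6 and 0 in DBA, while Marchf1 had 0 in B6 and 11056 in DBA. With at least 3 counts in each strain, 3147 of 14750 transcripts were called, 1411 higher and 1736 lower in DBA. Only genes with at least 3 counts in each strain were therefore joined, each with its strongest promoter peak, which gave 11928 genes.

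Where the promoter peak was lower in DBA, the transcript tended to be lower. Of 99 such genes, 46 had a lower transcript and 8 a higher one, with a median transcript log2 fold change of -0.61. Where the promoter peak was higher, 172 of 947 genes had a higher transcript and 102 a lower one, with a median of 0.07. Of the 10882 genes whose promoter peak was not called, 1206 had a higher and 1209 a lower transcript. Among the 328 genes called in both, 218 moved in the same direction, which is 66.5% (95% exact binomial interval 61.1 to 71.6, counting error only). Of these 218, 172 were higher in both and 46 lower in both. An even split need not be the baseline, since more promoter peaks were called higher than lower, a direction that turned with level-dependent offsets. Across genes the log2 fold changes correlated weakly (Pearson r 0.197, Spearman rho 0.122, 11928 genes of the same libraries, which are not independent).

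Several of the promoter peaks above had a transcript that moved with them. Mndal stood at 53.6 and 50.1 CPM in B6 and 4.35 and 3.68 CPM in DBA (log2 fold change -3.67 ± 0.18, edgeR adjusted p = 3.93e-11). Fggy stood at 37.9 and 34.7 CPM in B6 and 4.89 and 8.74 CPM in DBA. Sfi1 rose from 46.4 and 42.7 CPM to 265 and 267 CPM (log2 fold change 2.57 ± 0.09, edgeR adjusted p = 1.27e-12). Hdhd3 (log2 fold change 2.90 ± 0.41), Alad (2.09 ± 0.29), Pyroxd2 (3.38 ± 0.45) and Cd244a (4.06 ± 0.61) were also higher in DBA, though Cd244a rested on 1 and 1 counts in B6 and 18 and 11 in DBA. Glp1r rose from 1.70 and 1.03 CPM to 29.3 and 25.8 CPM (log2 fold change 4.29 ± 0.26, edgeR adjusted p = 8.5e-10). For genes named by list, peaks and transcripts went both ways. Kcnip3, whose 5 called peaks were lower in DBA, fell from 80.1 and 68.1 CPM to 16.7 and 19.6 CPM, and Kcnh1 fell too (log2 fold change -0.58 ± 0.09). The transcripts of Kcnb2 (-0.42 ± 0.08, edgeR adjusted p = 0.00032) and Ephb1 (-0.57 ± 0.12, edgeR adjusted p = 0.0016) were lower in DBA, against the rise of their peaks. Those of Gria1, Grin2b, Gabrb1 and Cdh18 were not called. Other genes did not move with their promoter peak. The Cacna1h transcript stood at 57.2 and 57.8 CPM in B6 and 54.9 and 47.4 CPM in DBA (edgeR adjusted p = 0.29), and that of Glo1 at 11.6 and 7.89 against 7.79 and 11.5 CPM (adjusted p = 0.89). Tor3a, a torsin ATPase gene chosen after its values were seen, had a promoter peak at 8.99 and 8.59 CPM in B6 and 18.7 and 18.6 CPM in DBA, and a transcript at 44.4 and 40.3 CPM in B6 and 20.6 and 25.8 CPM in DBA.

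**Figure D5:**
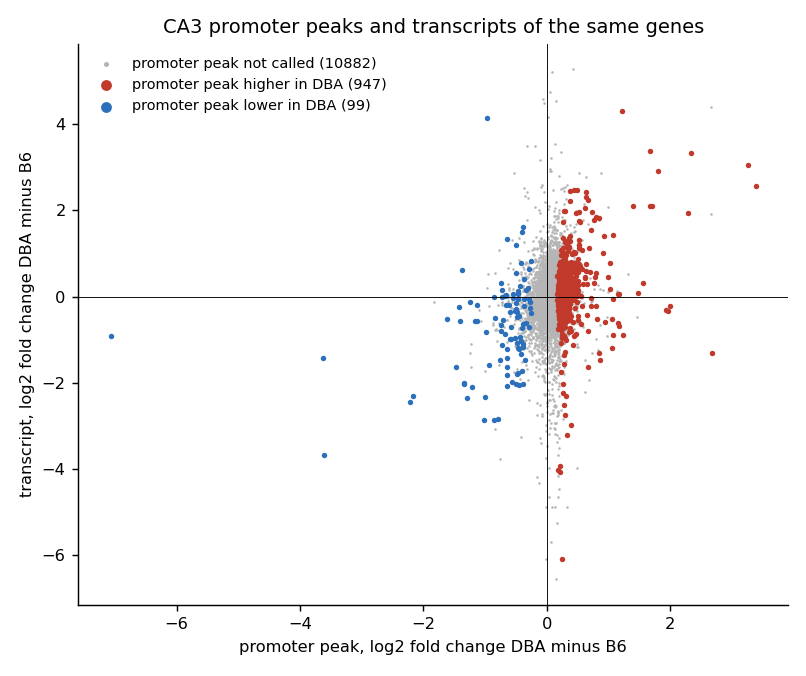
Each point is a gene, placed by the log2 fold change (DBA minus B6) of its strongest promoter peak (horizontal axis) and of its transcript (vertical axis). Of 99 genes with a lower promoter peak (blue) 46 had a lower transcript, and of 947 with a higher one (red) 172 had a higher transcript.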

How the data were processed

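Counts per peak (snATAC-seq) and per gene (snRNA-seq), summed by the authors over the nuclei of each cell type and library, were used as deposited, without normalization. Per the study's methods, reads of B6 were aligned to mm10 and reads of DBA to mm10 carrying DBA variants (Cell Ranger ATAC 2.0.0 and Cell Ranger 6.0.2 in the submitters' processing notes), doublets were removed with DoubletFinder in both assays, and peaks were called per sample and merged. Alignment to different sequences can shift counts between strains where reads map to several places. The study's methods state that snATAC-seq nuclei were not filtered on blacklisted regions. The Exc-CA3 columns were used, and the 56 snATAC-seq and 64 snRNA-seq columns of all other cell types were left out.

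Peaks on chromosomes with at least 10 counts over 4 libraries were fitted with edgeR 4.0.16 (TMM, quasi-likelihood test, R 4.3.3), DBA minus B6, with Benjamini-Hochberg adjustment over all peaks and calls under 0.05. Transcripts were filtered with filterByExpr. DESeq2 1.42.0, other normalizations and filters, a block for library number and leaving out each library were tried. Peaks were annotated with the GENCODE genes of GRCm38 (the assembly also called mm10), and sequences were read from the RefSeq copy of that assembly. Nothing in the labels tied a column to 1 sample. The p-values rest on the spread between 2 libraries per strain, which edgeR draws towards a spread shared over all peaks or transcripts. They therefore do not measure the spread of 1 peak's own libraries alone.

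Named were the 10 largest called changes in each direction at a mean of at least 5 CPM, at least 3 counts in each strain and no overlap of the strains, the same for promoter peaks, the 3 strongest peaks with 0 counts in each strain, up to 4 called peaks per gene list by p, the 5 windows of 500 kb with the highest and the 5 with the lowest medians (1 of them is not reported here), and promoter peaks joined to transcripts. The peaks and gene lists were chosen with earlier results of these data known.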

Additional observations from a re-analysis of the deposited data

How the results depend on the processing

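DESeq2 called 3608 peaks, 213 promoter peaks and 3320 transcripts. With library totals 883 promoter peaks were called, and with offsets that follow the level, chosen after seeing the data, 759. Leaving out 1 library gave 596 to 9238 called peaks and 41 to 569 promoter peaks, the lowest without DBA library 3. Requiring at least 3 counts in each strain left 3147 called transcripts. The share of promoter peaks and transcripts in the same direction was 85.7% with DESeq2 in both assays. That share was drawn from a smaller set, since DESeq2 called 213 promoter peaks against 1375 in the edgeR fit. Of peaks over 40 CpG per kb, DESeq2 called 0.971%, and edgeR called 8.77% of those that averaged 5 CPM or more. In windows of 1 Mb, 8 had a median of at least 0.5 in size. The cause of these shifts was not tested, apart from the smaller number of features or libraries where these were left out. Beside the promoter and CpG-dense splits given above, the split of all called peaks turned, with 5835 higher and 8194 lower in DBA under library totals, 6352 and 6983 under offsets that follow the level, and 1645 and 1963 under DESeq2. With library number as a replicate block, 16068 peaks, 1926 promoter peaks and 5492 transcripts were called, and 65.9% moved in the same direction. Deviations of same-numbered libraries correlated at 0.027 (snATAC-seq) and 0.031 (snRNA-seq), so the numbers were not taken as pairs. The 45 peaks named for the size of their change or for 0 counts in 1 strain stayed called under the block, DESeq2, both other normalizations and without either B6 library. Of the 68 peaks named by gene list, DESeq2 called 37, did not call 29 and gave no adjusted p for 2. With 2 libraries per strain the smallest p of an exact two-sided permutation test is 0.33.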

Other observations

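Gene families were counted over promoter peaks after the values were seen, beside 6.74% of all promoter peaks called. Olfactory receptor genes (Olfr), which are expressed in olfactory sensory neurons, had 27 of 145 promoter peaks called (18.6%), 13 higher and 14 lower in DBA. Genes of the H2- family had 8 of 26 called, 5 higher and 3 lower, and protocadherins (Pcdh), adhesion molecules of neurons, had 9 of 78, 7 higher and 2 lower. Zinc finger genes (Zfp) had 40 of 433 called (9.24%), 26 higher and 14 lower. Kallikrein genes (Klk) had 3 of 5 called, all lower in DBA. Solute carriers (Slc) had 20 of 418 called, 19 of them higher, and potassium channel genes (Kcn) 4 of 121. Ribosomal protein genes had 5 of 100 called. The promoter direction turned with level-dependent offsets, and the families were not recounted with them. Members of the Olfr, H2-, Zfp and Klk families are near copies of each other, so that reads could be split between them.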
